A study of Mus musculus with 5 samples.

Results

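The data described here are the steady-state expression profiles of endothelial cells sorted from the untreated adult mouse thymus. They comprise the 3 untreated arrays out of 5 in the data set, chosen by their day 0 label. The donors were untreated female C57BL/6J mice aged 6 to 8 weeks. The other 2 arrays came from mice given a sublethal 550 cGy of total body irradiation and sampled on day 4, and were not used. Cells bearing CD45, the common blood cell antigen, were removed with magnetic beads, and cells without CD45 and EpCAM but with VE-cadherin were then sorted by flow cytometry. Cells of several mice were pooled for each array, and how many mice went into a pool is not given in the sources used here. The cell type label named these samples as thymic endothelial cells, while their description named CD45-negative thymic stromal cells. Each array gave a log2 signal for every probe set of the Affymetrix MOE 430 A 2.0 design. Nothing in the labels says whether the pools came from separate sorts, so the spread between arrays may be partly technical.

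Endothelial cells line all blood vessels. In the thymus they control which blood-borne progenitors enter the organ and which mature T cells leave it, and they supply the stroma and thymocytes with cytokines, Notch ligands and BMP ligands. Vessel segments are told apart by their genes. Capillaries carry fatty acid and water channels, veins carry adhesion molecules for leukocytes, arteries carry Notch and ephrin-B2 signals, and lymphatic vessels depend on the transcription factor Prox1.

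The annotation named 1 gene symbol for 20380 of the 22690 probe sets, and these stood for 12393 genes. Each gene was represented by its probe set with the highest mean. A gene was said to have signal if its log2 value was above 4 on all 3 arrays, and to be at background if it was at or below 4 on all 3. Of the 12393 genes, 8502 (68.6%) had signal and 3363 (27.1%) were at background. A gene was counted in the top 10% if its mean percentile within the arrays was above 90 over all probe sets with 1 symbol. Because the brightest probe set stood for each gene, 1478 genes (11.9%) passed that mark. The array medians lay between 5.26 and 5.27, and pairs of arrays correlated across genes with Pearson r between 0.9938 and 0.9949 (genes are not independent replicates). Brightness depends on the probes as well as on the RNA. Among the 4956 genes with several probe sets, the highest and lowest probe set differed by a median of 1.87 log2 units, whereas the median range of the same genes over the 3 arrays was 0.19. Percentiles are therefore ranks of signal, and no order of transcript number between genes is read from them.

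The arrays carried the markers of endothelium at high and even levels. Values are given for replicates 1, 2 and 3 in that order, and means with their standard deviation over the 3 arrays (SD, n = 3). Cdh5, which encodes the VE-cadherin used for the sort, read 11.57, 11.51 and 11.64, at the 99.1st percentile, although its other probe set averaged 6.02. Pecam1, an adhesion molecule of endothelial junctions, read 9.70, 9.63 and 9.85, and Kdr, the main VEGF receptor, read 10.33, 10.47 and 10.69. Plvap, which forms the diaphragms of endothelial vesicles, averaged 11.36 ± 0.081 and Cd34 averaged 10.79 ± 0.075. The 5 markers were all in the top 10%, and none had a range above 0.36. The antigens excluded by the sort were lower but above the background cut. Ptprc, which encodes CD45, read 6.86, 6.08 and 6.63, and Epcam read 7.27, 6.59 and 6.83, both lowest on replicate 2.

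**Figure D1:**
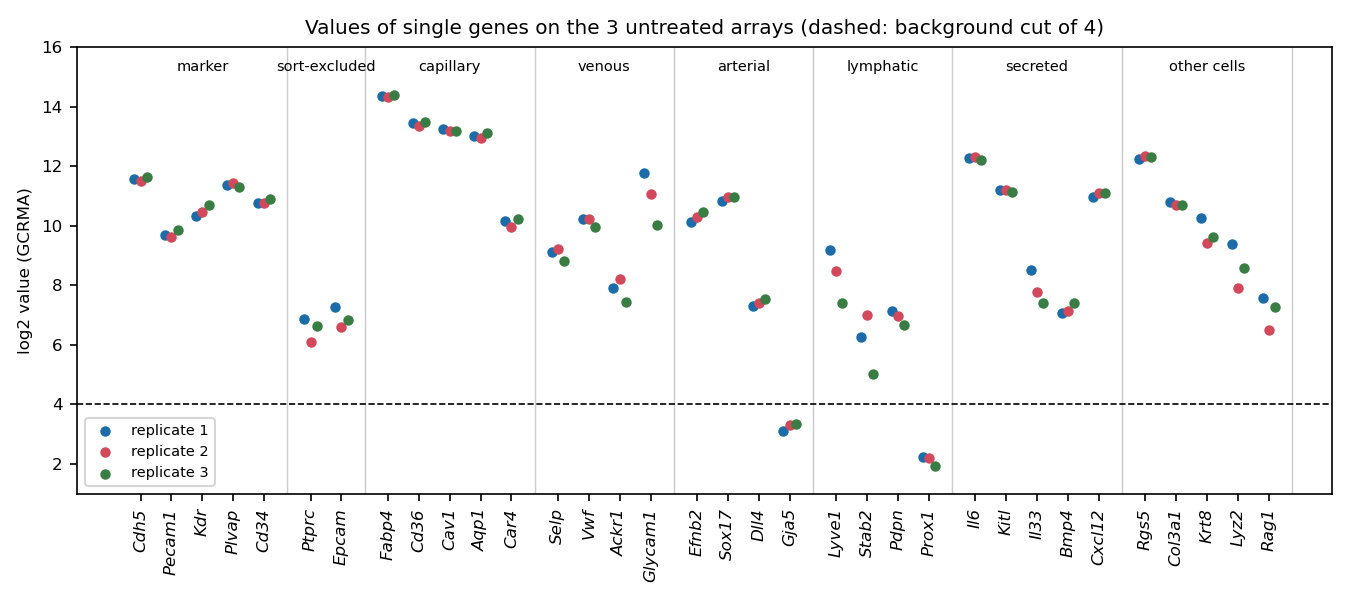
Log2 values of single genes on the 3 untreated arrays, 1 point per array, grouped by role; the dashed line is the background cut of 4. The markers and capillary genes lie close together on the 3 arrays, whereas Lyve1, Stab2, Glycam1 and Lyz2 are spread out, and Prox1 and Gja5 lie under the cut.

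Endothelial identity genes as a group were nearly all bright. All 28 measured members had signal and 23 were in the top 10%, with a median level of 10.32 against 5.83 over all genes. Alongside Cdh5 and Plvap, the brightest were Ptprb, a phosphatase that restrains Tie2 and VE-cadherin signalling, at 11.35 ± 0.29, and Esam, a junction adhesion molecule, at 11.34 ± 0.049. The dimmest were Rasip1, a Ras-interacting protein of vessel lumen formation, at 7.53 ± 0.26, Flt4, the VEGF-C receptor, at 7.99 ± 0.076, and Clec14a at 8.08 ± 0.24. No member varied by more than 2-fold between the pools. The small spread that existed was ordered: 21 of the 28 members were highest on replicate 3, a place that 31.7% of all genes with a mean above 4 took.

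Capillary genes gave some of the brightest signals on the arrays. All 21 measured members had signal, 19 were in the top 10%, and the list median was 11.63. Fabp4, a fatty acid carrier, read 14.35, 14.32 and 14.38 and was the brightest of all 12393 genes. Cd36, a fatty acid receptor and transporter, read 13.44, 13.36 and 13.49, and was also among the 10 brightest genes. Cav1, the coat protein of caveolae, averaged 13.20 ± 0.027, and the water channel Aqp1 averaged 13.02 ± 0.092. At the low end of the list were Esm1 at 8.45 ± 0.39, Cavin3 at 8.50 ± 0.059 and Slc2a1, a glucose transporter, at 8.96 ± 0.14. Esm1, a proteoglycan also used as a sprouting marker, read 8.00, 8.69 and 8.66, lower on replicate 1 than on the others.

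The other genes among the 10 brightest were Tmsb4x, Tpt1, B2m, Rps29, Hspa8, Eef1a1, Fos and Igfbp7. Of these, B2m belongs to MHC class I, Fos is an immediate-early transcription factor, and Igfbp7 is a matrix protein secreted by vessels; the rest are genes of the cytoskeleton, translation and protein folding that all cells use. Their means lay between 13.25 for Eef1a1 and 13.95 for Tmsb4x. Several of the brightest genes rested on the choice of probe set: the lowest probe set averaged 9.40 for Fabp4, 5.43 for Igfbp7 and 2.33 for Tpt1. No gene with a mean above 12 had a range above 1, among 90 such genes, and their median range was 0.10.

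**Figure D2:**
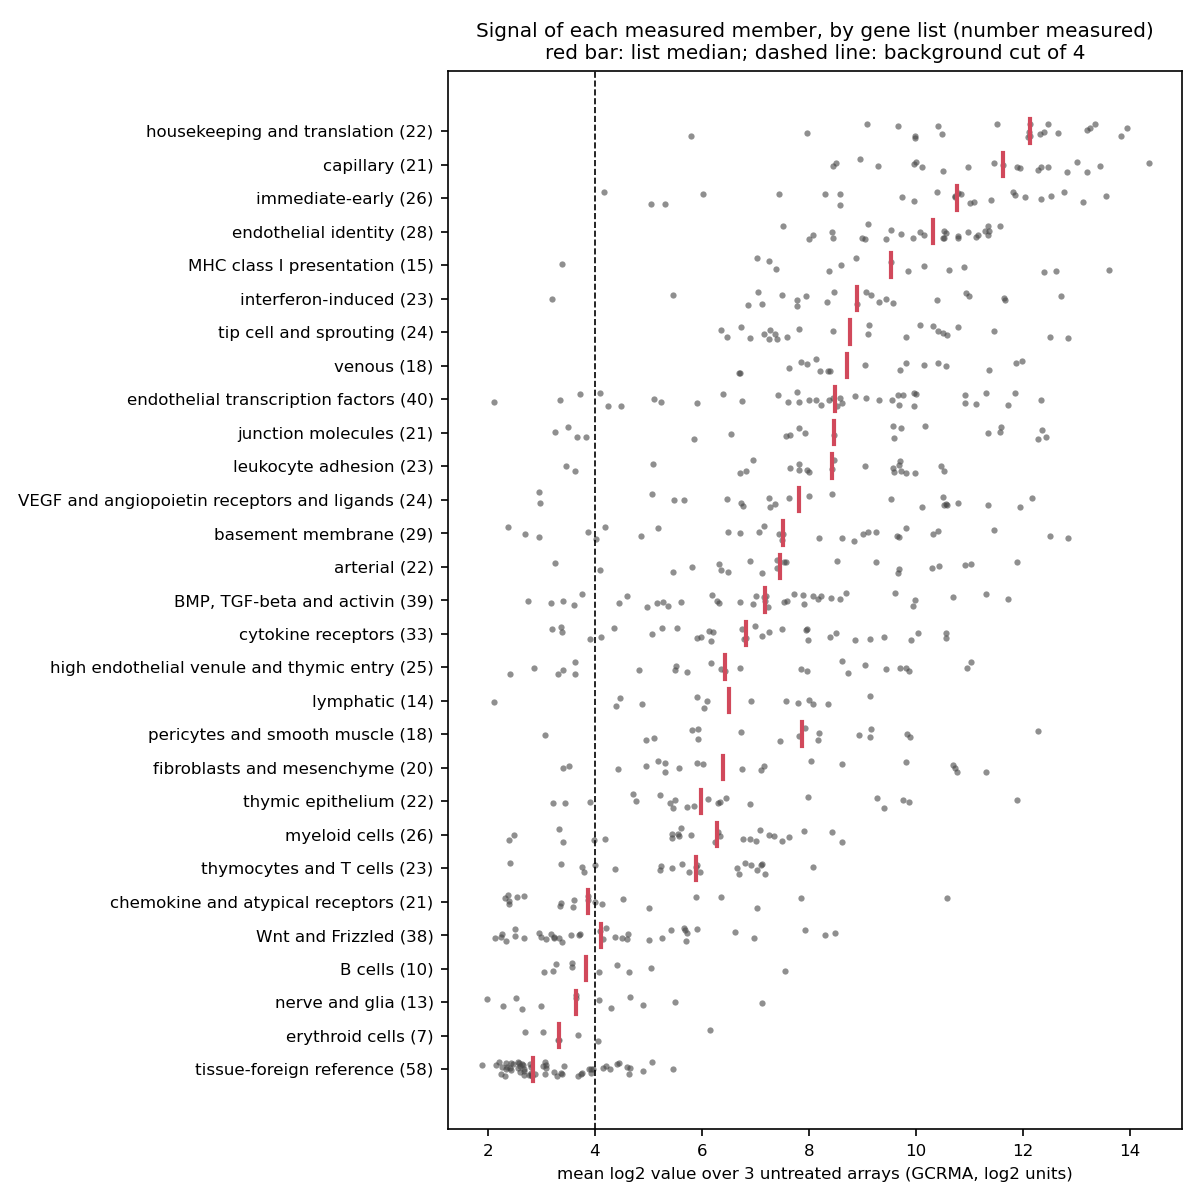
Mean log2 value over the 3 untreated arrays for each measured member of 28 gene lists and of a reference list of genes of other organs; red bars are list medians and the dashed line is the background cut of 4. Capillary and endothelial identity genes have medians of 11.63 and 10.32, while Wnt genes and chemokine receptors have medians of 4.12 and 3.87, and the reference list has a median of 2.85.

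Venous genes were well represented: all 18 measured members had signal, 9 were in the top 10%, and the median was 8.72. The brightest were Ctla2a, a protease inhibitor, at 11.98 ± 0.032 and Adamts1, a matrix protease, at 11.88 ± 0.11. The 3 lowest were Nrp2, Sele and Slco2a1. E-selectin (Sele), which is induced on inflamed venules, read 6.61, 7.05 and 6.49. Ackr1, the atypical chemokine receptor that marks venules, read 7.90, 8.20 and 7.43. Most of the list leaned the same way, with 12 of 18 members lowest on replicate 3 (36.3% of all genes with a mean above 4 were).

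The arterial list was mixed. Of 22 measured members, 21 had signal (95.5%, against 68.6% of all genes) and 8 were in the top 10%, with a median of 7.47. Its brightest members were Mgp, a matrix inhibitor of calcification, at 11.89 ± 0.041, Cxcl12 at 11.04 ± 0.077, the transcription factor Sox17 at 10.91 ± 0.075 and the receptor Notch1 at 10.43 ± 0.15. Efnb2, the ephrin ligand that marks arterial endothelium, read 10.12, 10.30 and 10.47. At the other end, the connexin Gja5 was at background at 3.08, 3.31 and 3.34, and Hey2, a Notch target of arteries, lay just above the cut at 4.18, 4.05 and 4.04. Gja4 and Gja1, connexins of the same family, read 7.57 ± 0.13 and 12.35 ± 0.057.

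Lymphatic genes did not behave as a block. Of 14 measured members, 13 had signal (92.9%, against 68.6% of all genes). The list's single gene in the top 10% was Nts, and the median was 6.51. Prox1, the transcription factor on which lymphatic identity depends, was at background at 2.24, 2.21 and 1.91, at the 2.7th percentile. Lyve1, a hyaluronan receptor that lymphatic vessels share with some veins and macrophages, read 9.18, 8.48 and 7.40, a 3.42-fold range. Stab2, another hyaluronan receptor, read 6.27, 6.98 and 5.01, a 3.92-fold range. Both were lowest on replicate 3, as were 10 of the 13 members with a mean above 4, against 36.3% of all such genes. Without replicate 3, which held the low end of both ranges, neither passed the 2-fold mark. F8, coagulation factor VIII, which is not a member of this list, read 6.66, 6.96 and 5.33 in the same order of arrays as Stab2. In bulk samples, fewer cells of a type and less RNA per cell cannot be told apart, and the part of other cells in these values was not tested.

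Genes for the entry and exit of lymphocytes had signal and background shares near those of all genes. Of 25 measured members of the high endothelial venule and thymic entry list, 19 had signal (76.0%), 6 were at background (24.0%) and 8 were in the top 10%. Glycam1, a mucin that carries L-selectin ligands, read 11.77, 11.05 and 10.03, a 3.35-fold range with the pools well apart. It no longer passed the 2-fold mark when replicate 3 was left out. The enzymes that decorate such ligands were dim: Chst4, a sulfotransferase of high endothelial venules, averaged 2.41 ± 0.24, and the fucosyltransferases Fut4 and Fut7 were at background too. So was Madcam1, the addressin of gut venules, at 3.75, 3.51 and 3.62. P-selectin (Selp), which binds progenitors at the thymic wall, read 9.10, 9.22 and 8.80, and its partner adhesion molecules Icam1 and Vcam1 averaged 9.81 ± 0.080 and 9.71 ± 0.20. Spns2 and S1pr1, the exporter and receptor of sphingosine 1-phosphate, read 8.62 ± 0.067 and 9.44 ± 0.19, while the receptor S1pr3 was at background at 3.41 ± 0.14.

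Growth factor receptors of the vessel wall led their list, and 2 ligands were at background (8.33%, against 27.1% of all genes). In the VEGF and angiopoietin list, 22 of 24 measured genes had signal (91.7%, against 68.6% of all genes) and 10 were in the top 10%. The brightest were receptors: the co-receptor Nrp1 at 12.16 ± 0.11 and the apelin receptor Aplnr at 11.95 ± 0.076. Flt1, Tek and Kdr, the receptors for VEGF and angiopoietins, lay at the 97.4th to the 97.6th percentile. Angpt1, the angiopoietin made mainly by mural cells, was at background at 2.96, 3.28 and 2.70, and Vegfd was at background at 2.84, 3.23 and 2.81. Vegfb averaged 5.06 and Vegfa 5.47 ± 0.055, but the second probe set of Vegfa averaged 2.99, so its call depended on the probe set. Apln, the ligand of Aplnr, read 6.38, 6.44 and 6.58.

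Receptor tyrosine kinases had signal about as often as genes in general. Of 39 measured, 26 had signal, 12 were at background and 4 were in the top 10%, a share with signal of 66.7% against 68.6% over all genes. The 4 brightest were Flt1, Tek and Kdr, with Pdgfrb, which marks pericytes, at 9.75, 10.11 and 9.67. The lowest were Erbb4, Epha3 and Epha5. The Wnt and Frizzled list had no member in the top 10%, and 19 of its 38 measured members had signal. Its brightest were the receptors Fzd6 at 8.48 ± 0.065 and Fzd4 at 8.31 ± 0.095 and the Fzd4 partner Tspan12 at 7.93 ± 0.089, whereas the ligand Wnt3 and the nuclear effector Lef1 were at background.

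Among cytokine receptors, 28 of 33 measured had signal (84.8%, against 68.6% of all genes) and 7 were in the top 10%. The receptors of the interleukin-6 family led: Osmr averaged 10.57 ± 0.067, the shared subunit Il6st 10.56 ± 0.086 and Lifr 10.03 ± 0.15. Il6ra, the specific chain for interleukin-6, read 4.91, 5.19 and 5.12, near the background cut, and Il7r and Il10ra were at background. The ligand side of this family was split as well. Il6 read 12.27, 12.31 and 12.22, at the 99.6th percentile, and Lif was at background at 3.56, 3.46 and 3.24. Socs3, a feedback inhibitor of this pathway, averaged 12.53 ± 0.14.

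Ligands with known roles in the thymus covered the whole scale. Of 42 measured cytokines and growth factors, 26 had signal (61.9%, against 68.6% of all genes) and 14 were at background (33.3%, against 27.1%). Beside Il6, the brightest were Ccn1, a matricellular protein, at 11.34 ± 0.11, Kitl, the ligand of Kit on progenitors, at 11.17 ± 0.040 and Ccn2 at 9.91 ± 0.24. Kitl read 11.19, 11.20 and 11.13, although the other 3 of its 4 probe sets averaged between 6.27 and 8.78. Bmp4, which acts on thymic epithelium, read 7.05, 7.13 and 7.41, and Dll4, the Notch ligand that instructs T cell fate, read 7.28, 7.40 and 7.52. Both had signal on every array at the 74.7th and 77.3rd percentiles. Il33, an alarmin, read 8.52, 7.75 and 7.40, a 2.17-fold range with replicate 1 highest. That range fell under 2-fold without replicate 1 and without replicate 3. The growth factors Fgf2, Fgf10, Wnt5a, Fgf7 and Hgf were at background, with means from 2.08 to 3.16.

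Notch signalling genes mostly had signal, 23 of 26 measured (88.5%, against 68.6% of all genes). Notch1 read 10.27, 10.55 and 10.47, the protease Adam10, which cleaves Notch, averaged 10.25 ± 0.052, and Notch4 averaged 9.67 ± 0.055. Among the ligands, Dll1 averaged 7.84 ± 0.058, Dll4 7.40 ± 0.12, Jag2 7.40 ± 0.18 and Jag1 5.81 ± 0.11, while Dll3 was at background at 2.96 ± 0.079. The order of the first 4 is an order of probe signal. No member of the list varied by more than 2-fold between the pools.

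In the BMP, TGF-beta and activin list, 34 of 39 measured genes had signal (87.2%, against 68.6% of all genes). Of the 39, 6 were in the top 10%. The targets Id3 and Id1 averaged 11.72 ± 0.10 and 11.32 ± 0.27, and the receptor Tgfbr2 averaged 10.70 ± 0.038 with Smad1, a signal transducer of BMP, at 9.98 ± 0.029. Bmp6, Bmp2 and Bmp4 averaged 8.70 ± 0.15, 7.60 ± 0.19 and 7.20 ± 0.19. Bmp5, the co-receptor Tgfbr3 and the BMP antagonist Grem1 were at background. The type II receptor Bmpr2, measured by 1 probe set, read 5.03, 5.44 and 5.34.

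Transcription factors of endothelium were bright in part. Of 40 measured, 37 had signal (92.5%, against 68.6% of all genes) and 17 were in the top 10%. Klf2, which responds to blood flow, read 12.32, 12.28 and 12.42, and Klf4 averaged 11.85 ± 0.13. Ets1 averaged 10.91 ± 0.12, whereas Erg, an ETS factor regarded as a core endothelial regulator, read 4.36, 4.52 and 4.57 on its single probe set. Etv2, which acts in the embryo, and Gata3 were at background, as was Prox1. Foxp1 was the only member with a range above 2-fold, at 7.38, 8.48 and 8.16, and it had 7 probe sets whose lowest mean was 5.68. Without replicate 1, and likewise without replicate 2, its range was under 2-fold.

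Junction genes held the brightest signals for Ctnnb1, which links cadherins to actin, at 12.44 ± 0.059, for the gap junction protein Gja1 at 12.35 ± 0.057 and for Cldn5, the main claudin of endothelium, at 12.29 ± 0.061. Of 21 measured, 17 had signal (81.0%, against 68.6% of all genes) and 3 were at background (14.3%, against 27.1%). Occludin (Ocln) was at background at 3.70, 3.45 and 3.34, and Cldn1 was above the cut only on replicate 1, at 4.25, 3.39 and 3.36.

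The basement membrane list showed which chains carried signal. Of 29 measured genes, 23 had signal (79.3%, against 68.6% of all genes) and 12 were in the top 10%. Sparc, a collagen-binding protein, read 12.70, 12.87 and 12.98, and Col4a1 and Col4a2, the common type IV collagen chains, averaged 12.51 ± 0.078 and 11.46 ± 0.076. Col4a3 and Col4a4, chains of specialised basement membranes such as that of the kidney, were at background at 2.95 ± 0.26 and 2.70. Among laminin alpha chains, Lama4 and Lama5, those of the vessel wall, averaged 9.10 ± 0.064 and 7.43 ± 0.015, and Lama1 was at background at 2.38 ± 0.21. Chains of the same family thus lay at both ends of the scale.

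Interstitial matrix genes had signal in 29 of 37 cases (78.4%, against 68.6% of all genes) and 8 were in the top 10%. Igfbp7 read 13.44, 13.51 and 13.60 and Mgp 11.89, 11.85 and 11.93. Dcn and Col3a1, a proteoglycan and a collagen that fibroblasts make in quantity, averaged 10.76 ± 0.20 and 10.73 ± 0.067. Col1a1, the partner chain of Col1a2, averaged 5.91 ± 0.13 while Col1a2 averaged 9.82. Cartilage collagens Col11a1 and Col10a1 were at background. Among proteases and inhibitors, 34 of 41 had signal (82.9%). Ctsl, Adamts1, Timp3 and Timp4 led, with means between 11.45 for Timp4 and 11.90 for Ctsl. Mmp14, a membrane protease, read 6.69, 8.12 and 7.82, a 2.70-fold range with replicate 1 apart that fell under 2-fold without that array, and Mmp13 was above the cut only on replicate 2, at 2.17, 4.92 and 1.97. Of the 21 integrin chains measured, 11 had signal (52.4%, against 68.6% of all genes) and 9 were at background (42.9%, against 27.1%). Itga6, a laminin receptor chain, was the brightest at 10.90 ± 0.035.

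Genes for the control of clotting, tone and transport showed a like mix. Thbd, the thrombin receptor that starts the anticoagulant protein C pathway, read 11.48, 11.63 and 11.52, and F3, tissue factor, which starts clotting, read 4.79, 5.17 and 4.39. Fga and Fgb, the fibrinogen chains made in liver, were at background. Nos3, the endothelial nitric oxide synthase, lay at the 91.7th percentile, and Ece1, which matures endothelin, averaged 10.42 ± 0.071, while the natriuretic peptide Nppc and the endothelin Edn3 were at background. Among transporters, 22 of 28 had signal (78.6%, against 68.6% of all genes) and 10 were in the top 10%. Scarb1, the HDL receptor, and the efflux pump Abcg2 followed Cd36 and Aqp1 at 11.34 ± 0.067 and 11.02 ± 0.12. Slc22a8 and Slco1c1, carriers of the blood-brain barrier, were at background.

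Chemokine genes were bright for a few ligands, while most receptors were at background or near the cut. Of 32 ligands, 23 had signal (71.9%, against 68.6% of all genes) and 5 were in the top 10%: Cxcl12, Cxcl1, Cxcl9, Cxcl10 and Ccl25. Cxcl12, which attracts progenitors and mature lymphocytes through Cxcr4, read 10.95, 11.08 and 11.08. Cxcl9 and Cxcl10, ligands that interferon induces, averaged 10.48 ± 0.13 and 9.99 ± 0.19. Ccl25, which thymic epithelium also makes, read 10.48, 9.66 and 9.49, highest on replicate 1. Of 21 receptors, 7 had signal (33.3%) and 11 were at background (52.4%, against 27.1% of all genes). The 1 in the top 10% was Ackr3, a scavenger of Cxcl12, at 10.59 ± 0.16. Ccr2 and Cxcr6, receptors of leukocytes, were at background at 2.32 ± 0.033 and 2.37 ± 0.14.

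Antigen presentation genes divided by class. For MHC class I, 14 of 15 measured genes had signal (93.3%, against 68.6% of all genes) and 9 were in the top 10%. B2m, the light chain, averaged 13.61 ± 0.077, and the heavy chains H2-K1 and H2-D1 averaged 12.63 ± 0.093 and 12.40 ± 0.16. For MHC class II, 11 of 13 had signal (84.6%). H2-Aa, the alpha chain, read 11.09, 10.22 and 10.61, and Cd74, the invariant chain, read 8.85, 8.10 and 8.46. Ciita, the activator of these genes, was at background at 3.55, 3.70 and 3.71. All 11 members of the class II list with a mean above 4 were lowest on replicate 2, against 31.4% of all such genes. Replicate 2 also had the lowest myeloid and thymocyte marker levels. The part of those cells in the class II signal was not tested.

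Immediate-early genes, which rise within minutes when cells are handled or stimulated, were mostly bright. All 26 measured members had signal (against 68.6% of all genes), 18 were in the top 10%, and the median level was 10.76. With the background cut at 6, 22 had signal. Fos read 13.51, 13.57 and 13.58, Egr1 averaged 13.13 ± 0.069, Dusp1 12.76 ± 0.083 and Socs3 12.53 ± 0.14. Nr4a3 was the lowest at 4.21, 4.20 and 4.11. None of the 26 varied by more than 2-fold, a count near the 1.32% over all genes, and 17 of the 26 were lowest on replicate 1 (32.1% of all genes with a mean above 4 were). The stress chaperone Hspa1b averaged 13.13 ± 0.11. The part of tissue dissociation and sorting in these levels was not tested.

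Interferon-induced genes were also present in the untreated cells. Of 23 measured, 22 had signal (95.7%, against 68.6% of all genes) and 12 were in the top 10%, with a median of 8.91. Ifitm3, an inhibitor of virus entry, read 12.69, 12.68 and 12.76, and Iigp1, a GTPase of cell-autonomous immunity, read 11.31, 11.71 and 11.97. Irf1, a transcription factor, averaged 11.65 ± 0.063, and Rsad2, which encodes viperin, read 10.98, 10.93 and 11.09. Mx1 was the single member at background, at 3.38, 3.20 and 3.03. Bst2, which encodes the virus tether tetherin, was the single member with a range above 2-fold, at 8.50, 8.52 and 9.70, and its range was under 2-fold without replicate 3.

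The promoters of several of these genes hold the repeat that interferon regulatory factors and the ISGF3 complex recognise, and 60 bases of a few are shown as examples. Signal was not particular to these examples, since 22 of the 23 measured members of the list had it. The capitals mark GAAA followed by any 2 bases and GAAA again, or the same with TTTC where it lies on the other strand. Sequences are from RefSeq promoter windows on GRCm38.p6, in the direction of the gene, and each stretch ends before the start of transcription.
Ifit1, chr19:34640760-34640819, + strand: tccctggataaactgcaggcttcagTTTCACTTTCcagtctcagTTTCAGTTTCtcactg
Gbp2, chr3:142620579-142620638, + strand: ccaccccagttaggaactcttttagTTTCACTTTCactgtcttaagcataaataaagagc
Rsad2, chr12:26456538-26456597, - strand: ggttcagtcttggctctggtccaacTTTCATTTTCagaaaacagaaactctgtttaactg
Igtp, chr11:58199496-58199555, + strand: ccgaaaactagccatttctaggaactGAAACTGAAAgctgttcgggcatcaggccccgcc
Bst2, chr8:71537568-71537627, - strand: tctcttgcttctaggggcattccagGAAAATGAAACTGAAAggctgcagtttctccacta
Cxcl10, chr5:92349068-92349127, - strand: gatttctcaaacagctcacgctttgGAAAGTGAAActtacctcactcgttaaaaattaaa

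In these stretches, the first match lay 104 bases before the start of Ifit1 and 120 before that of Rsad2, with 59 for Gbp2, 34 for Igtp, 130 for Bst2 and 213 for Cxcl10. In Bst2 the 2 matches, GAAAATGAAA and GAAACTGAAA, overlap. Over both strands of the window from 250 bases before to 50 after the start, 11 of the 18 interferon-induced genes with a promoter in the table held the motif (61.1%). Of all 27025 genes with a promoter, 3.99% held it, and of the genes on the array 3.84%. The motif was picked after the signals were seen, and several genes of the list are known for it. Ifit1 read 9.41, 9.23 and 9.30, Gbp2 read 10.40, 10.42 and 10.39, and Igtp read 9.54, 9.55 and 9.62. By the same search, AGGAAG, a core that ETS factors bind, was held by 11 of 17 endothelial identity genes (64.7%), by 11 of 17 thymocyte genes and 13 of 20 myeloid genes (65.0%), and by 38.4% of all genes with a promoter. The other ETS core, CCGGAA, was held by 2 of the 17 endothelial identity genes (11.8%) against 16.7% of all genes and 26.1% of those on the array. The CArG box of serum response factor was held by 2 of 21 immediate-early genes against 1.81% of all. A match is a run of letters, and its use in these cells was not measured.

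Markers of other thymic cells had signal, at different levels and with different evenness over the pools. The pericyte and smooth muscle list had 17 of 18 measured members with signal (94.4%, against 68.6% of all genes) and a median of 7.88. Rgs5, a pericyte gene, read 12.23, 12.35 and 12.29, Acta2, smooth muscle actin, averaged 9.89 ± 0.17 and Cnn1, a marker of mature smooth muscle, was at background at 3.06 ± 0.15. The mean level over this list was 7.56, 7.66 and 7.50 on replicates 1, 2 and 3. Fibroblast markers had signal in 17 of 20 cases (85.0%), with list means of 7.13, 7.06 and 6.91. They ran from Gsn at 11.31 ± 0.26 to Dpp4 and Twist2 at background.

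Thymic epithelial markers had signal in 19 of 22 cases (86.4%, against 68.6% of all genes), with list means of 6.84, 6.34 and 6.39. The keratin Krt8 read 10.25, 9.41 and 9.63, and Prss16, a thymus-specific protease of cortical epithelium, read 10.08, 9.26 and 8.86. Aire, the factor of medullary epithelium that drives tissue-restricted genes, averaged 5.40 ± 0.31, and Foxn1, the master regulator of this lineage, was at background at 3.58, 3.04 and 3.06. Of the 19 members with a mean above 4, 16 were highest on replicate 1 (36.2% of all genes with a mean above 4 were).

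Blood cell markers had medians of 5.89 for thymocytes and 6.27 for myeloid cells, against 5.83 over all genes, and they differed between the arrays. Thymocyte and T cell genes had signal in 18 of 23 cases (78.3%, against 68.6% of all genes). None was in the top 10%, and the list means were 5.91, 5.35 and 5.74. Rag1, the recombinase of thymocytes, read 7.58, 6.51 and 7.25, Dntt read 7.67, 6.52 and 7.19 and Cd3g read 6.56, 5.28 and 6.07, while Rag2 was at background at 2.41 ± 0.31. Myeloid genes had signal in 21 of 26 cases (80.8%), none in the top 10%, with list means of 6.31, 5.67 and 5.86. Lyz2, lysozyme, read 9.39, 7.92 and 8.57 and C1qa, a complement gene of macrophages, read 8.40, 6.90 and 7.60, whereas Itgam was at background at 2.49 ± 0.16. In both lists replicate 2 was the lowest array for most members with a mean above 4. These were 15 of 19 in the thymocyte list and 16 of 21 in the myeloid list, against 31.4% of all such genes. Of B cell genes 4 of 10 had signal (40.0%) and of erythroid genes 1 of 7 (14.3%), with Hba-a1 at background at 2.69 ± 0.088. Among cell cycle genes 18 of 27 had signal (66.7%, against 68.6% of all genes). Pcna averaged 11.31 ± 0.077, and Mki67, a mark of dividing cells, read 6.96, 6.21 and 6.91.

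**Figure D3:**
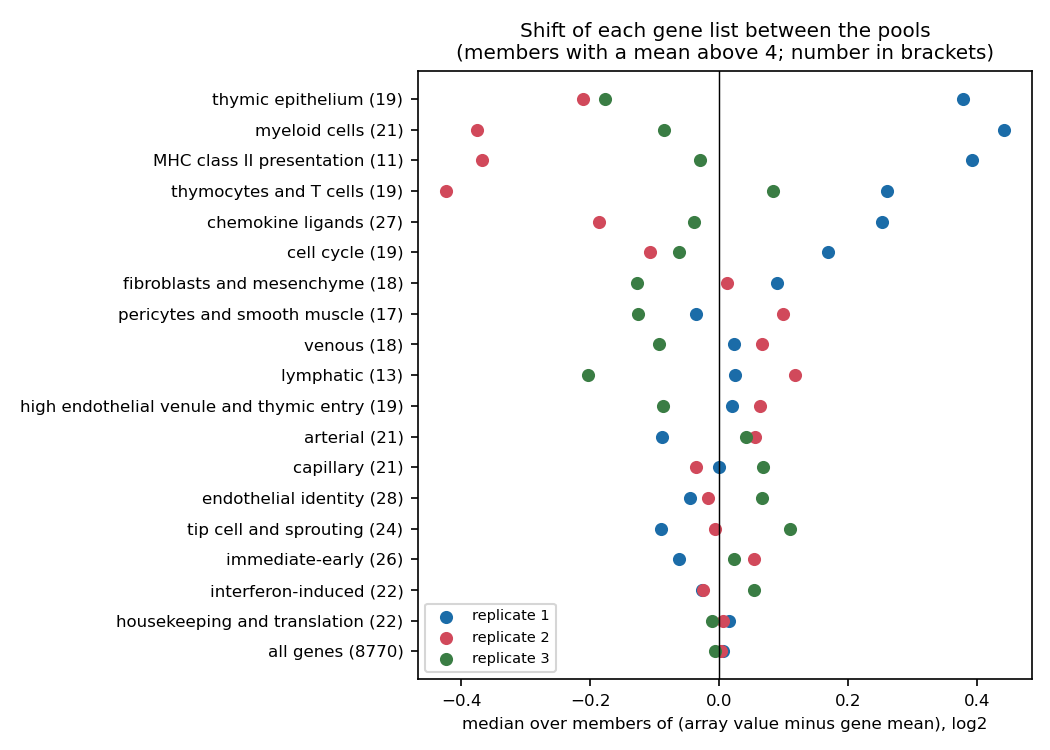
Median over the members of each list of the array's log2 value minus the gene's mean, for members with a mean above 4 and for all 8770 such genes; 1 point per array. Myeloid, thymocyte, thymic epithelial and MHC class II lists spread over 0.5 or more log2 units between the arrays, with replicate 1 highest in each, while endothelial, capillary and housekeeping lists stay near 0.

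Few genes differed between the pools. Of the 8770 genes with a mean above 4, 164 (1.87%) had a range above 1 log2 unit, that is 2-fold between the highest and lowest array, which is 1.32% of all 12393 genes. The count rested on all 3 arrays. A range over 2 arrays is smaller, and the count was 53 without replicate 1, 77 without replicate 2 and 94 without replicate 3. Most of these genes were dim, with 92 at means between 4 and 6 and 16 at means above 8. Replicate 2 was the lowest array for 86 of them (52.4%) and replicate 1 the highest for 80 (48.8%), whereas 31.4% and 36.2% of all genes with a mean above 4 had those places. Replicate 2 was the highest array for 15 (9.15%).

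**Figure D4:**
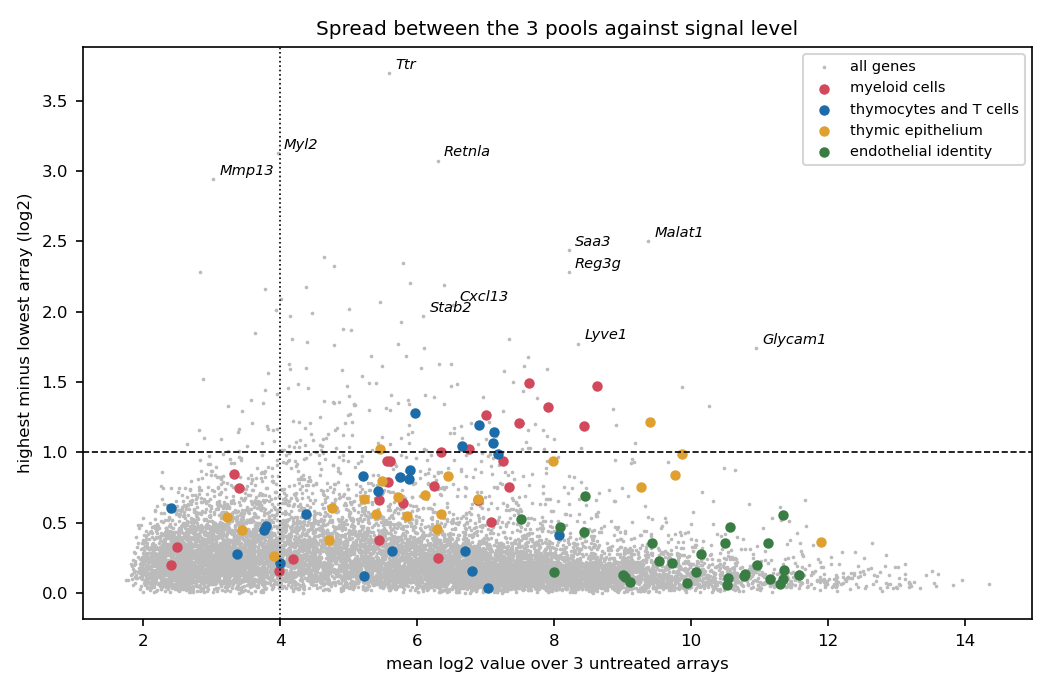
Highest minus lowest log2 value over the 3 untreated arrays against the mean, 1 point per gene for 12393 genes, with 4 lists coloured; the dashed line marks a range of 1 and the dotted line a mean of 4. Endothelial identity genes lie under the dashed line at the right, and 8 myeloid and 5 thymocyte genes lie above it at means above 4.

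The largest counts of varying members were in lists of blood cells and immune proteins. Myeloid genes had 8 of 26 members with a range above 2-fold, thymocyte genes 5 of 23, MHC class II genes 3 of 13 and chemokine ligands 7 of 32, against 1.32% of all genes. Leaving out the array at either end of a range always shrinks it, so the counts without an array show only which arrays held the ends. Without replicate 1 they were 1, 0, 0 and 2, without replicate 2 they were 0, 0, 0 and 2, and without replicate 3 they were 7, 5, 3 and 6. At means above 6 they were 8, 4, 2 and 2, so 5 of the 7 varying chemokine ligands had means of at most 6. Among chemokine ligands, Cxcl13, which attracts B cells, read 7.60, 6.42 and 5.56, a 4.13-fold range, and Ccl6 and Ccl9, made by macrophages, read 6.72, 4.79 and 5.79 and 6.65, 4.96 and 5.89. Ccl6 and Ccl9 took the same order of arrays as C1qa and Lyz2. Vessel lists held varying members too: 2 of 14 lymphatic genes, 2 of 26 coagulation genes, 1 of 18 venous genes, 1 of 25 high endothelial venule genes and 1 of 40 transcription factors. The endothelial identity, capillary and arterial lists had 0, as had the fibroblast and pericyte lists, and a count of 0 in lists of this size is near the share over all genes.

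The genes with the largest range belonged to none of the vessel lists. Ttr, the thyroid hormone carrier of liver and choroid plexus, read 6.53, 3.27 and 6.97, so that it was under the background cut on replicate 2. Retnla, a gene of alternatively activated macrophages, read 7.81, 4.73 and 6.37. Saa3, an acute-phase protein, read 8.79, 6.71 and 9.15, and Saa1 read 6.61, 4.26 and 6.49. Iapp, a pancreatic islet hormone, Reg3g, an antibacterial lectin of the gut, Lypd8, a gut epithelial protein, and Bpifa1, an airway protein, completed this group, with Reg3g at 9.02, 6.74 and 8.87. Ttr, Saa3, Saa1, Iapp, Reg3g, Lypd8 and Bpifa1 were each lowest on replicate 2 and close to each other on replicates 1 and 3. The thymic epithelial list means were 6.84, 6.34 and 6.39 on the same arrays, and Aire read 5.76, 5.24 and 5.20. Which cells gave these signals was not tested.

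Another set was lowest on replicate 1 and highest on replicate 3. Malat1, a nuclear long noncoding RNA, read 8.17, 9.27 and 10.68, a 5.66-fold range, and Akap9, a scaffold protein of the centrosome, read 3.40, 4.71 and 5.79. Son, a splicing cofactor, read 9.46, 10.52 and 10.80. In all, 45 of the 164 genes had this order. Of the 5 probe sets of Malat1, 3 had ranges between 2.37 and 2.51 and 2 had ranges of 0.40 and 0.47, and the other 5 probe sets of Son had ranges of at most 0.36. The difference between the 3' and 5' probe sets of the actin control was 1.59, 1.65 and 1.43 on the arrays, lowest on replicate 3. That of the Gapdh control was 0.96, 0.90 and 0.93, lowest on replicate 2. Their part in these values was not tested.

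Among genes with a mean above 8, the largest ranges after Malat1, Saa3 and Reg3g were those of Lyve1, Glycam1, Lyz2, Lyz1, Son, Wfdc18 and Prss16. Lyve1 and Glycam1 had the same order, with replicate 1 highest and replicate 3 lowest, an order shared by 18 of the 164 genes. Lyz1, a second lysozyme gene whose sequence is close to that of Lyz2 so that their probes may share signal, read 10.56, 9.10 and 9.95, and Wfdc18 read 9.40, 8.09 and 9.12. The commonest order among the 164 was replicate 1 highest and replicate 2 lowest with replicate 3 between, held by 62 genes, Lyz1, Lyz2, C1qa and Wfdc18 among them.

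**Figure D5:**
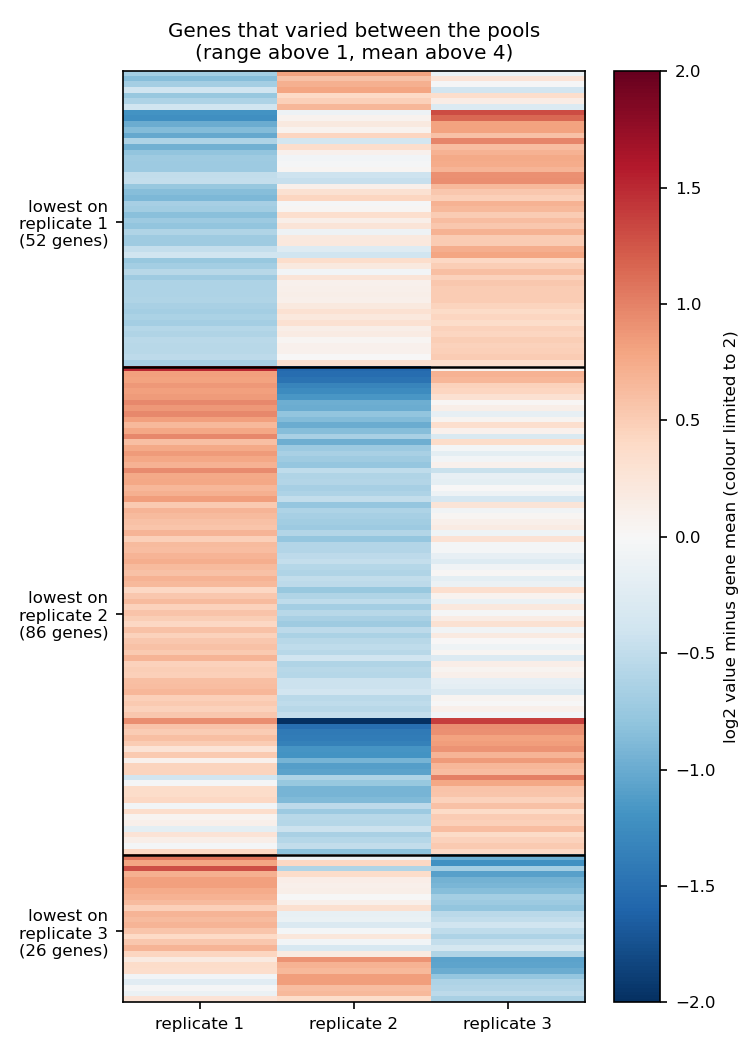
Log2 value minus gene mean on the 3 untreated arrays for the 164 genes with a range above 1 and a mean above 4, 1 row per gene, grouped by the array with the lowest value; the colour scale is limited to 2 log2 units. The largest block, 86 genes, is lowest on replicate 2, followed by 52 genes lowest on replicate 1 and 26 lowest on replicate 3.

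Other probe sets gave a partial check on these orders. Of the 164 genes, 43 had 73 further probe sets, of which 38 had both the same highest and the same lowest array as the representing probe set, and 23 had a range above 1. Their median range was 0.58, against 1.34 for the representing probe sets of the same 43 genes. Probe sets of 1 gene share the RNA of the pool and are not replicates.

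The background cut was set beside genes of other organs. Of 58 genes that belong to tissues such as testis, retina, lens, liver or muscle, 45 were at background (77.6%, against 27.1% of all genes). Still, 9 of the 58 had signal on all 3 arrays (15.5%, against 68.6% of all genes). The median was 2.85. The members not at background reached up to 5.46 for Pomc, and the 95th percentile of this list was 4.70. Values between 4 and about 5.46, such as those of Erg, Hey2, Il6ra and F3, are thus within the reach of genes of foreign tissues. Whether the reference genes above the cut were probe background or were transcribed in cells of the samples was not tested. Myl2, a heart muscle gene, read 3.04, 5.98 and 2.86, above the cut on replicate 2 alone.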

How the data were processed

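RNA of 3 pools of sorted thymic endothelial cells of untreated mice was hybridised to Affymetrix MOE 430 A 2.0 arrays as biotin-labelled cRNA. The deposited table holds log2 values, which the authors computed with GCRMA according to the submitters' processing notes. No source used here gives its version or says whether the arrays of both days were normalized as 1 set. GCRMA subtracts background by probe sequence and brings arrays to a common distribution, so a shift shared by most genes cannot be seen and low values are stretched. The deposited table used here carries no detection calls.

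Of 22690 probe sets, 691 had several symbols, 1555 none and 64 were controls; 20380 had 1. By Entrez identifier, 20351 of these matched the RefSeq gene table of GRCm38.p6, 29 did not, and 0 symbols changed. A gene was represented by the probe set whose mean over the 3 arrays was highest. Levels, percentiles within each array, SD and range were computed with Python 3.11.15, pandas 2.3.3 and numpy 2.4.6, and drawn with matplotlib 3.10.9. With 1 group there was no test between groups and no p-value; the number of arrays, 3, limits the precision. The script was run on simulated data with means above 6, a limited spread and a large shift on 1 array. That run does not cover the 92 varying genes with means between 4 and 6.

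Genes were named by rule: the markers, the antigens of the sort, the 10 highest means, the 10 largest ranges at means above 4 and above 8, Bmp4, Kitl, Dll4 and Il33, and of each list up to 4 highest, 3 lowest and 3 most variable members, with family partners at the other end of the scale. Aire, Erg, Ets1, F3, Fgf7, Hgf, Selp, Vcam1, Spns2, Bmpr2, Hspa1b, Ifit1, Gbp2 and Igtp were named outside it, after their values were seen. The 47 gene lists and the members were chosen with earlier results of these data known. Promoters came from RefSeq tables, and 9 motifs were searched on both strands: the GAAA repeat, the ETS cores AGGAAG and also CCGGAA, the E-box, the CArG box and those of CREB, STAT, NF-kappaB and heat shock factor. The alternatives were other background cuts, quantile normalization, median centring, other summaries of probe sets, other filters and measures of spread, and leaving out each array.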

Additional observations from a re-analysis of the deposited data

How the results depend on the processing

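Of the 12393 genes, 8502 had signal, 3363 were at background and 164 varied. Signal counts ran from 10267 with the background cut at 3 to 5716 with it at 6, and background counts from 1520 at a cut of 3 to 6211 at a cut of 6. With the cut at the 95th percentile of genes of other organs they were 7557 and 4366. Quantile normalization and median centring gave 163 varying genes each. Counting every probe set with 1 symbol instead of genes gave 13077 with signal, 6368 at background and 290 varying. Varying genes numbered 72 with a mean above 6, 195 with no filter on the mean, 127 with probe sets averaged per gene and 187 with an SD above 0.5; without 1 replicate each they ranged from 53 to 94, since a range over 2 arrays is smaller. Of the 46 lists other than the reference, 31 had a larger share with signal than all genes, and 29 to 37 did under the alternatives. Counts within lists were less stable. With the cut at 6, members with signal fell sharply in 21 of 47 lists and less or not at all in 26. Thymocyte genes with signal fell from 18 to 9, myeloid genes from 21 to 12 and thymic epithelial genes from 19 to 10. Leaving out any 1 array moved the varying count sharply in 11 of the 47 lists. Of the 1478 genes in the top 10%, 1056 stayed with the mean of the probe sets. Averaging the probe sets moved 11 of 38 levels of named genes by more than 1 SD. Cdh5 moved to 8.79, Fabp4 to 11.71, Tpt1 to 8.08 and Igfbp7 to 9.27. Named genes with 1 probe set, such as Pecam1, Kdr, Plvap and Cd34, could not move, so the share among the others was larger. Quantile normalization moved 0 of the 38 levels. Leaving out 1 array cannot shift a mean of 3 values by more than their SD, so the 0 there was fixed in advance. No paired analysis was possible because there is 1 group and no result comes from a test.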

Other observations

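Probe sets outside the gene counts also carried signal. Of the 691 probe sets with several symbols, 479 (69.3%) had signal on all 3 untreated arrays, and 208 reached the level of the top 10%. Of the 1555 without a symbol, 644 (41.4%) had signal and 114 reached that level. Their genes are not named here.

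Targets of p53, a factor that responds to DNA damage, had signal in all 20 measured cases in these untreated cells. The share with signal over all genes was 68.6%. With the background cut at 6, 12 of the 20 had signal. Cdkn1a, an inhibitor of the cell cycle, read 11.73, 11.70 and 11.82, and 4 members were in the top 10%. Innate sensing genes had signal in 10 of 16 cases (62.5%, against 68.6% of all genes). The adaptor Myd88 at 9.28 ± 0.092 and the RNA sensor Ifih1 at 9.08 ± 0.062 led, while the receptors Tlr1, Tlr9 and Tlr6 were at background. Platelet genes had signal in 6 of 8 cases (75.0%) and nerve and glia genes in 5 of 13 (38.5%), against 68.6% of all genes. Their medians were 5.36 and 3.65, against 5.83 over all genes. Adipoq, an adipocyte hormone, read 6.28, 7.68 and 6.95, a 2.63-fold range with replicate 2 highest.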
